A study of Homo sapiens with 8 samples.

Results

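Heat shock proteins and their partners fold new proteins, hold unfolded ones in solution and take aggregates apart. The 84 genes described here are the protein-coding genes on chromosomes 1 to 22 and X whose RefSeq symbols name them as HSPA (HSP70), HSP90, HSPB (small heat shock), HSPD1, HSPE1, HSPH1, DNAJA, DNAJB, DNAJC or CCT2 to CCT8 family members, together with TCP1 and HSF1, out of 19970 protein-coding genes. The choice used names and not measured values. It also takes in 2 read-through genes, HSPE1-MOB4 and DNAJC25-GNG10, which share sequence with a neighbour.

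The study used HEK293T, an established human embryonic kidney cell line, and KAS-seq, in which N3-kethoxal reacts with unpaired guanines so that opened DNA, such as that in transcription bubbles, can be enriched and sequenced. In the vitamin C group, cells stood in 0.5 mM vitamin C for 10 min before N3-kethoxal was given at 5 mM for a further 10 min; the control group was labelled in the same way without vitamin C. Each group had 2 labelled libraries with a peak list and 2 input libraries, which were not analysed here. The labels do not say whether replicates came from separate cultures, so a p-value covers no more than the spread of these libraries, and that spread may be technical.

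HSP70 proteins bind exposed hydrophobic stretches of a client and release them in an ATP-driven cycle. DNAJ proteins, the HSP40 co-chaperones, bring clients to HSP70 and start its ATP hydrolysis, and HSP90 takes over clients such as kinases and steroid receptors. The CCT complex, built from TCP1 and the CCT subunits, is a closed chamber that folds actin and tubulin, and HSPD1 with HSPE1 forms the corresponding chamber of mitochondria. Many of these genes are transcribed in unstressed cells, while a smaller group is induced by heat through HSF1, which binds repeats of the motif nGAAn in alternating orientation, the heat shock element.

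The promoters that carry this element, or that lie under a peak in every library, are shown here because they place the peaks relative to the start site. RefSeq promoter windows of the build GRCh38.p14, 250 bases before the start and 50 bases after it, were matched for 75 of the 84 genes. The sequences run 5′ to 3′ on the gene's own strand, and capitals mark each element of 3 repeats, which is GAA, TTC and GAA in that order, or its reverse complement TTC, GAA and TTC, with any 2 bases between repeats, so both strands were searched. HSPA8, which encodes the constitutive HSP70 of the cytosol, had a peak on the window in all 4 libraries (chr11:123062087-123062386, minus strand) and holds the element at -230 to -218 and again at -55 to -43, counted from the start base as 0. DNAJB4, a cytosolic HSP40 (chr1:77978925-77979224, plus strand), and DNAJC27, a small-GTPase-like DNAJ protein (chr2:24972045-24972344, minus strand), also had a peak on the window in all 4 libraries and hold no such element. HSPA6, a strictly heat-inducible HSP70 (chr1:161524290-161524589, plus strand), holds the element at -74 to -62, DNAJA1, an HSP40 of the cytosol (chr9:33025023-33025322, plus strand), at 3 to 15, and DNAJB6, another HSP40 (chr7:157336754-157337053, plus strand), at -131 to -119. None of these last 3 had a peak on the window in any library.
HSPA8: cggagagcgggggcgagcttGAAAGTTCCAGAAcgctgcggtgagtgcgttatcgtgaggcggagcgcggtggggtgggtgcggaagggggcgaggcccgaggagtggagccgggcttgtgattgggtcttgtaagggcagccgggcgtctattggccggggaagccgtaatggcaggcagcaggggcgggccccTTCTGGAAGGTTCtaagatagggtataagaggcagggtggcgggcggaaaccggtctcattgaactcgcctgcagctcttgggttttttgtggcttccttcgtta
DNAJB4: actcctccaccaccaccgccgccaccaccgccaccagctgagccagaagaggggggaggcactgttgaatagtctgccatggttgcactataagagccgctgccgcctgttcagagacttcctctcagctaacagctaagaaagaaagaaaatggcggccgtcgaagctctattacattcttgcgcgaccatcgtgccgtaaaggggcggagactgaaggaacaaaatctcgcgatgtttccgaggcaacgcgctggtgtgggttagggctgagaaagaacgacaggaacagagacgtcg
DNAJC27: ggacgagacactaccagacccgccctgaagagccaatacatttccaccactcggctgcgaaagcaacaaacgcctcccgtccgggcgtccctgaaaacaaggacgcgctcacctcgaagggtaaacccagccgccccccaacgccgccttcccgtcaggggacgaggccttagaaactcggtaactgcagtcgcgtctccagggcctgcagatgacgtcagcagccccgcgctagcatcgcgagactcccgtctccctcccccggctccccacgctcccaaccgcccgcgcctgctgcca
HSPA6: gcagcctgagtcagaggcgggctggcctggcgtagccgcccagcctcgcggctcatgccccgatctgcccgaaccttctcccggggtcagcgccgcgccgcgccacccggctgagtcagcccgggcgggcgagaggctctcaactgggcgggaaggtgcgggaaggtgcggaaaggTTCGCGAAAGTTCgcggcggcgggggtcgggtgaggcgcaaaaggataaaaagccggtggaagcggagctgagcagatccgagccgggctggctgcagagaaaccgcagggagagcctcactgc
DNAJA1: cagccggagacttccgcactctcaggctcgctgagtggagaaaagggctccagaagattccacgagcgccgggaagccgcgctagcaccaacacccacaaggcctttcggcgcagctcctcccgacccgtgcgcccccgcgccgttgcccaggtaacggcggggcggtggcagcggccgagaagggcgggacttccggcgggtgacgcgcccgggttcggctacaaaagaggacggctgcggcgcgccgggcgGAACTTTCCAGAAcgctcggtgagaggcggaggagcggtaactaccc
DNAJB6: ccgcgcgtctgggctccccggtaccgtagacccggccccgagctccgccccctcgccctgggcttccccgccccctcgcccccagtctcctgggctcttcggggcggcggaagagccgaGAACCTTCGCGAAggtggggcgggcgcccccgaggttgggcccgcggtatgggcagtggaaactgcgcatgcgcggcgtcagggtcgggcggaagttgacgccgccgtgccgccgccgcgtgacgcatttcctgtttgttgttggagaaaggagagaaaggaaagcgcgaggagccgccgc

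The element of 3 repeats was found in 4 of the 75 chaperone promoters (5.33%) and in 0.367% of 15811 promoters of all protein-coding genes. These were HSPA8, HSPA6, DNAJA1 and DNAJB6. Only the window at the RefSeq start listed for each gene was searched, and only exact matches were counted. A gene without a match may carry the element outside that window or in a changed form. The shorter form of 2 repeats, GAA and TTC in either order with any 2 bases between them, which is contained in the longer one, was found in 17 chaperone promoters (22.7%) and in 11.4% of all. Among the 17 chaperone promoters, those of HSPA1A, HSPA1B, HSPA1L, HSPB1 and HSPB8, with others, held the shorter form only. The median GC content was 63.7% in the chaperone windows and 62.7% in all windows. A peak touched 3 and 7 of the 75 chaperone windows in the vitamin C libraries (4% and 9.33%), against 16 and 9 in the controls (21.3% and 12%). Over all 15811 promoters the shares were 4.40% and 4.41% with vitamin C, against 10.1% and 8.59% in the controls. A match describes letters in a window and does not show that a factor was bound.

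The lists were much shorter after vitamin C in the genome as a whole, and the chaperone genes have to be read against that. They held 9816 and 9896 peaks in the vitamin C libraries and 30351 and 24111 in the controls. The genome-wide mean of labelled fragments per position, solved from the deposited fold and p of each peak, was 1.22 and 0.871 with vitamin C and 0.817 and 0.849 in the controls. The weakest peak of a list held 10 and 7 fragments at its summit with vitamin C, against 6 in each control, so a peak of the same fragment number could be called in one list and not in another. As a check of the cell type, VIM alone of 5 genes listed for HEK293T had a peak, in all 4 libraries, and 4 of 10 marker genes of other cell types had a peak in some library; opened DNA at a locus is not a measure of its RNA. Signal in a population cannot tell fewer cells with opened DNA from less opened DNA in each cell.

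Fewer chaperone genes carried a peak after vitamin C, and none was found only there. A gene was counted when a peak overlapped it or the 1 kb on either side. This held for 33 and 38 of the 84 genes in the vitamin C libraries, against 55 and 49 in the controls. The means were 35.5 ± 3.54 genes with vitamin C and 52 ± 4.24 genes in the controls (SD, n = 2 each). The groups did not overlap. An exact permutation test (two-sided) gave p = 0.333, and no design of 2 against 2 can give less. The share of genes with a peak was 42.3% with vitamin C and 61.9% in the controls for chaperones, and 23.02% with vitamin C and 41.1% in the controls for all protein-coding genes. Peaks in chaperone windows numbered 89 and 98 with vitamin C and 244 and 197 in the controls, a log2 ratio of -1.24 between the means. They made up 0.948% ± 0.0591 of the list with vitamin C and 0.810% ± 0.00928 in the controls (SD, n = 2 each), with the same exact permutation p of 0.333. When the lists were cut to equal length by rank, the directions turned: the vitamin C libraries had 0.5 more chaperone genes with a peak than the controls on average, and the log2 ratio of peak numbers was 0.0875. The share did not turn: in lists of equal length it was higher with vitamin C by 0.056 percentage points (exact permutation p = 0.667). There it is the peak number divided by the same list length, so it is not a result apart from that ratio. It was higher by 0.0804 points at −log10 q of at least 5, against 0.138 points in the full lists.

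A peak in both controls was found for 46 of the 84 chaperone genes, against 35.3% of all protein-coding genes. Of the 46, 31 kept a peak in both vitamin C libraries (67.4%, exact 95% interval 52.0 to 80.5), 9 had none in either (19.6%, interval 9.36 to 33.9) and 6 had one in a single vitamin C library. Among all protein-coding genes with a peak in both controls, 49.7% kept one and 26.9% lost it. A further 12 chaperone genes had a peak in some libraries without having one in both controls, and 26 had none anywhere, as did 52.5% of all protein-coding genes. No chaperone gene was gained, meaning present in each vitamin C library and absent from each control, against 0.0472% of all genes with no control peak. Without control replicate 2 the lost count was 16 and without vitamin C replicate 2 it was 14, while in lists of equal length it was 1. Leaving out a library relaxes the rule, so the lost count could not fall there. Intervals cover counting error only, and neighbouring genes can share a peak. A peak in both controls need not lie at the same place. In the lost genes HSPA1B, HSPA12A and DNAJC1 the control peaks did not overlap.

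**Figure D1:**
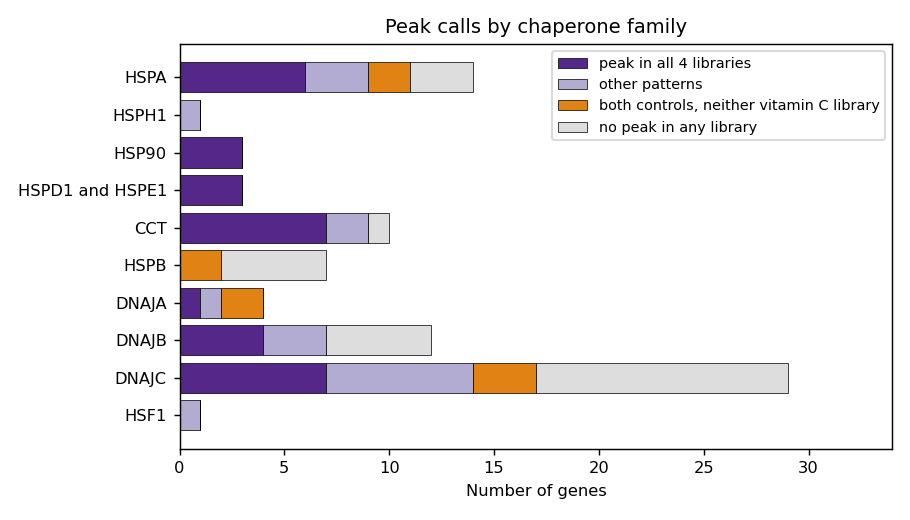
Number of chaperone genes (horizontal axis) by family and by the libraries in which the gene, widened by 1 kb, had a peak. All 3 HSP90 genes and 7 of 10 CCT genes had a peak in all 4 libraries, while 5 of 7 HSPB genes had none. Among all protein-coding genes, 17.5% had a peak in all 4 libraries and 52.5% had none. The median length was 1.62 kb for HSPB genes and 24.19 kb for all protein-coding genes.

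Whether a gene kept its peak followed the strength of its control peak. Strength was the percentile of a gene's highest-fold peak in each control list, averaged over the controls, and it divided all genes with a peak in both controls into 5 groups of about equal size. In the strongest group, 18 of 18 chaperone genes kept a peak and none was lost. Of all genes in that group, 95.5% kept a peak and 0.78% were lost. In the weakest group, 5 of 5 chaperone genes were lost, against 56.4% of all genes. The groups between them, weak to strong, lost 1 of 7, 2 of 8 and 1 of 8 chaperone genes, against 43.1%, 25.6% and 8.53% of all genes. The kept share of the chaperones stood beside a stronger set of control peaks, with a median strength of 84.7 for chaperones and 74.0 for all genes.

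The HSP90 genes held the tallest peak of the set. Height here is the number of labelled fragments at the summit divided by the genome-wide mean of that library, and a control region is a stretch covered by merged control peaks that both controls share. HSP90AB1, the constitutive cytosolic HSP90, had a peak 1055 to 1067 bp downstream of the RefSeq start used here in every library. Only 1 start per gene was used, so this distance does not tell an internal peak from one at another start. The peak held 148 and 117 fragments with vitamin C and 151 and 144 in the controls. As heights these were 120.8 and 134.3 with vitamin C, against 184.8 and 169.6 in the controls, so the groups did not overlap on that scale, while the undivided fragment numbers do. All 4 control regions of the gene were met in both vitamin C libraries. Its window held 9 and 7 peaks with vitamin C and 6 and 5 in the controls, yet they covered 4609 and 4238 bp with vitamin C and 6537 and 6547 bp in the controls: wide control peaks were called as several narrower ones. HSP90AA1, the inducible cytosolic form, had 3 of 5 regions met, the tallest of them with heights of 51.4 and 40.2 with vitamin C and 60.0 and 56.5 in the controls. The middles of the HSP90AA1 regions lie 49752 to 61075 bp downstream of the start used, far from its promoter window. HSP90B1, the HSP90 of the endoplasmic reticulum, had none of its 4 regions met in both vitamin C libraries and was kept only as a gene, through 1 peak in each. It counted as lost at −log10 q of at least 5, and also at −log10 p of at least 8.

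**Figure D2:**
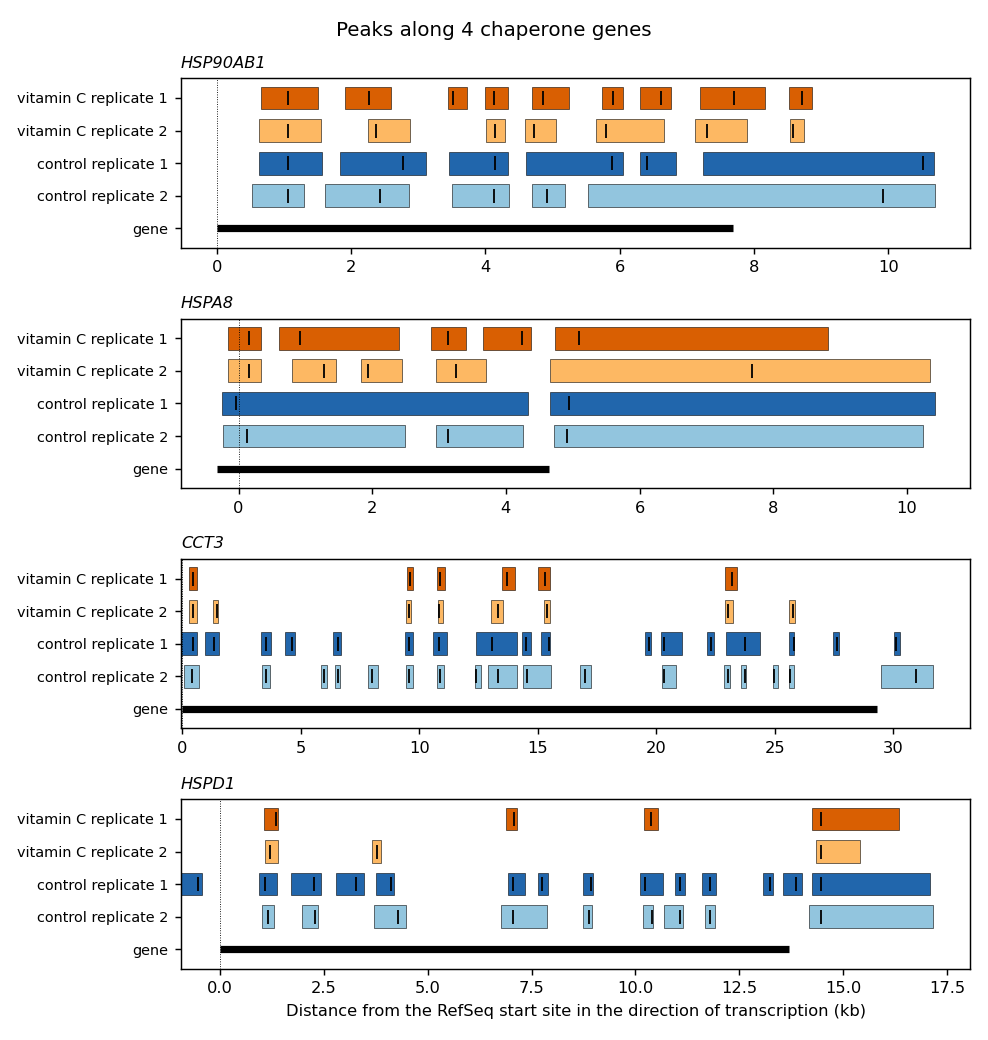
Peaks (bars) and their summits (ticks) in each library along HSP90AB1, HSPA8, CCT3 and HSPD1, by distance in kb from the RefSeq start site in the direction of transcription; the black line is the annotated gene. The peak about 1 kb downstream of the start used for HSP90AB1 lies at the same place in all 4 libraries. The wide control peaks of HSPA8 appear as several shorter ones with vitamin C. Other start sites of these genes are not marked.

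Among the HSP70 genes, 6 of 14 were kept and 2 were lost. HSPA8 had both of its control regions met. In the region over the gene, heights were 40.0 and 26.4 with vitamin C, against 47.7 and 41.2 in the controls. In the region beyond its 3′ end they were 44.9 and 44.8 with vitamin C, against 66.1 and 63.6 in the controls. The region over the gene was 4574 bp wide and contains the small nucleolar RNA genes SNORD14C, SNORD14D and SNORD14E, so signal there cannot be assigned to HSPA8 alone. Control replicate 1 covered it with 1 peak, and with vitamin C it held several shorter ones. The whole HSPA8 window, with both regions, held 5 and 5 peaks with vitamin C against 2 and 3 in the controls. HSPA4, an HSP110-type exchange factor for HSP70, kept its region at the 3′ end, with heights of 46.5 and 41.3 with vitamin C and 67.3 and 69.5 in the controls.

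The kept call of HSPA6 does not describe its promoter. Its only peak, with 87 and 61 fragments with vitamin C and 99 and 83 in the controls, had its summit at -760 to -729 bp from the start. As heights these were 71.0 and 70.0 with vitamin C and 121.2 and 97.8 in the controls. The peak overlaps the glycine tRNA gene TRG-GCC2-1 and the neighbouring gene FCGR2A. No peak touched the promoter window printed above. HSPA1A and HSPA1B are near-identical copies, and calls on them are uncertain. HSPA1A had no peak, while HSPA1B had 1 weak peak in each control, of 8 and 13 fragments at different ends of the gene, and none with vitamin C. HSPA12A, a distant HSP70 relative, was the other lost gene. It had 1 peak of 13 fragments in each control, and these peaks did not overlap, so it had no control region. HSPA14 was kept, and its 2 control regions were met in both vitamin C libraries. The kept members HSPA5 and HSPA9 were not picked by control strength and are described because of their values. HSPA5, the HSP70 of the endoplasmic reticulum, had 36 and 39 fragments with vitamin C and 33 and 36 in the controls in its 3′ region. Heights there were 29.4 and 44.8 with vitamin C and 40.4 and 42.4 in the controls, which overlap. HSPA9, the mitochondrial HSP70, had 3 of 10 regions met.

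HSPH1, which encodes the heat-inducible HSP110, had 1 peak in a single control of 11 fragments. HSF1, the transcription factor itself, had 1 peak of 8 fragments, also in a single control. Neither had a peak with vitamin C.

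The CCT genes carried the most regions of any family: 54 control regions, of which 21 were met in both vitamin C libraries and 20 in neither. None of the 9 CCT genes with a peak in both controls was lost. CCT2 kept its 3′ region, with heights of 53.9 and 64.3 with vitamin C and 90.6 and 75.4 in the controls, but its 2 shorter body regions were met in neither. CCT3 had 6 of 11 regions met and CCT4 6 of 9. At the start of CCT3 the heights were 43.3 and 33.3 with vitamin C and 52.6 and 54.2 in the controls, which do not overlap, while the undivided fragment numbers of 53 and 29 with vitamin C and 43 and 46 in the controls do. The peak there also overlaps the neighbouring gene TSACC in every library. CCT5 had 2 of 7 regions met, CCT6A 3 of 7 and TCP1 2 of 6, and the peaks of CCT6A and TCP1 are partly shared with SUMF2 and with MRPL18 and ACAT2. CCT7 had 1 region met, and it was one of only 2 chaperone regions with a height ratio above 1, at 16.3 and 14.9 with vitamin C and 14.7 and 11.8 in the controls. With gene ends only, CCT7 counted as lost. CCT6B and CCT8 had a peak in both controls and in vitamin C replicate 2 only. CCT8L2 had no peak.

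The mitochondrial chamber genes lie head to head, and HSPE1 and HSPE1-MOB4 share a start. HSPD1 kept 2 of 9 regions. The one beyond its 3′ end had heights of 36.7 and 41.3 with vitamin C, against 57.5 and 47.1 in the controls. The other 7 regions of HSPD1 were met in 1 vitamin C library (3 regions) or in neither (4 regions). The single HSPE1 region lies beyond the 3′ end of the gene and is also a region of HSPE1-MOB4. The kept calls of both genes rest on the 1 peak there in each vitamin C library. That region had 16 and 10 fragments with vitamin C and 12 and 15 in the controls, which overlap. Its heights were 13.1 and 11.5 with vitamin C and 14.7 and 17.7 in the controls, which do not.

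**Figure D3:**
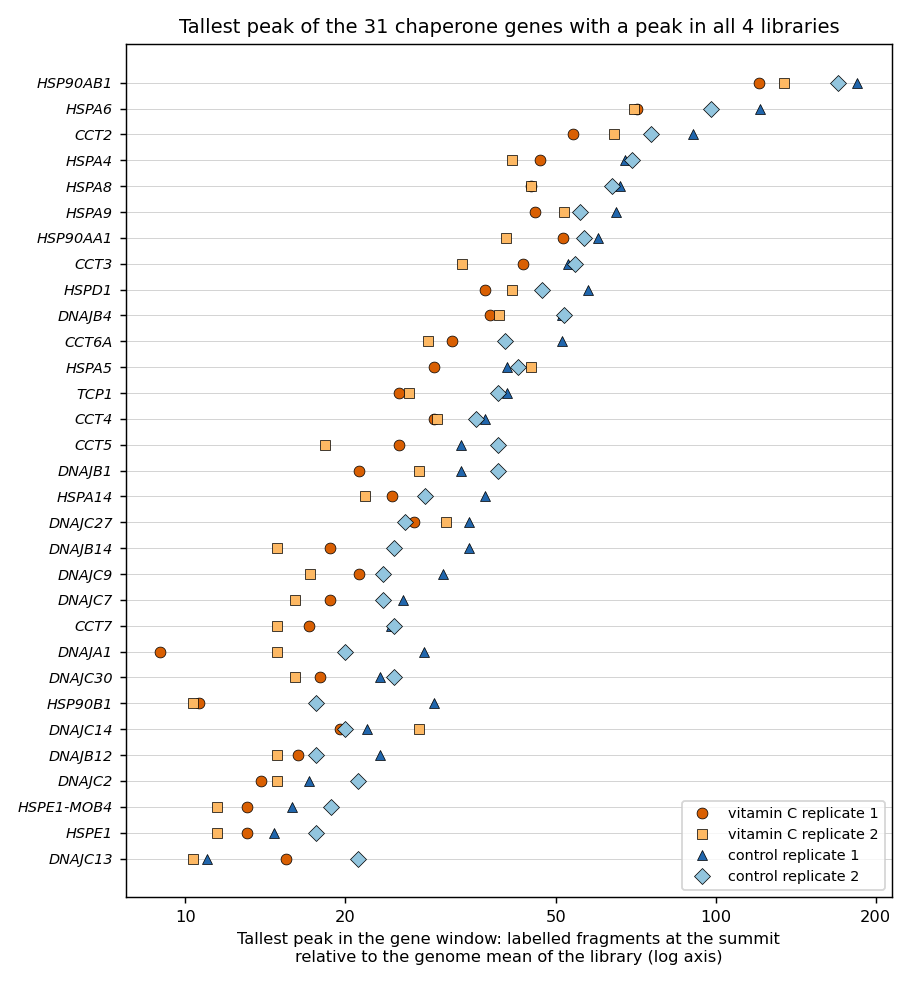
Height of the tallest peak in the window of each of the 31 chaperone genes with a peak in all 4 libraries, as labelled fragments at the summit relative to the genome mean of the library (log axis). For HSP90AB1 both vitamin C libraries (120.8 and 134.3) lie left of both controls (184.8 and 169.6), while in HSPA5 and DNAJC27 the groups overlap.

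The small heat shock genes, which encode ATP-independent holding chaperones, were mostly without peaks. Of 7 HSPB genes, 5 had none, against 52.5% of all protein-coding genes, and 2, HSPB9 and HSPB6, were lost. The median length was 1.62 kb for HSPB genes and 24.19 kb for all protein-coding genes. Chaperone genes without a peak had a median length of 6.4 kb, against 18.7 kb for kept ones. Whether gene length bears on these calls was not tested. HSPB9 had 3 regions in the controls, the tallest with 23 and 17 fragments, and none was met. Its control strength of 91.2 was the highest of the 9 lost genes, and its strongest peak lies before the gene, at -1171 and -1166 bp from its start. HSPB6 had a region near its 3′ end with 21 and 20 control fragments that was met in neither vitamin C library.

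Of the genes with a peak in both controls, 1 of 3 DNAJA genes, 4 of 5 DNAJB genes and 7 of 12 DNAJC genes were kept. DNAJA2 and DNAJA3, a cytosolic and a mitochondrial HSP40, were lost, and DNAJA1 was kept with 2 of 4 regions met. At 1 of these, centred 915 bp downstream of the DNAJA1 start, there were 11 and 13 fragments with vitamin C and 10 and 11 in the controls. The heights there, 8.98 and 14.9 with vitamin C and 12.2 and 13.0 in the controls, overlap. DNAJB4 kept 2 of 3 regions. Its region over the start overlaps the neighbouring gene FUBP1 and had heights of 27.8 and 27.6 with vitamin C and 42.8 and 42.4 in the controls. DNAJB1, the main stress-inducible HSP40, was kept only through a peak that overlaps the gene TECR, at -7820 to -7755 bp from the DNAJB1 start used here. Both regions at its own 3′ end, of 11 to 14 control fragments, were met in neither vitamin C library, and it counted as lost with gene ends only or without peaks on other coding genes. DNAJB12 and DNAJB14 were kept with 1 of 3 regions each, and that of DNAJB14 overlaps the histone gene H2AZ1 in the controls. Without the 1 kb on either side, DNAJB14 counted as lost.

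The 29 DNAJC genes, a diverse group defined by the J domain alone, split into 7 kept, 3 lost, 7 with other patterns and 12 without a peak. DNAJC27 had a single region, over its start, with 33 and 27 fragments with vitamin C and 28 and 22 in the controls, and its heights of 26.9 and 31 with vitamin C overlapped those of 34.3 and 25.9 in the controls. DNAJC14, a membrane protein of the endoplasmic reticulum, had the other region with a ratio above 1. In vitamin C libraries that region held 24 and 24 fragments, against 18 and 17 in the controls, but by height the values were 19.6 and 27.6 with vitamin C and 22.03 and 20.02 in the controls, which overlap. With gene ends only, DNAJC14 counted as lost. DNAJC9, a histone co-chaperone, kept 1 of 7 regions, at its start. DNAJC2 kept a peak in every library while neither of its 2 control regions was met, and its 16 peaks over the 4 libraries all lie on PMPCB as well. DNAJC1, DNAJC19 and DNAJC25-GNG10 were lost, each with a control strength in the weakest of the 5 groups. DNAJC1 had 1 peak in each control, and these did not overlap, so it had no control region.

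Taking places in place of genes, chaperone windows held 142 control regions. Both vitamin C libraries met 54 of them (38.0%, exact 95% interval 30.0 to 46.5), 1 met 29 and neither met 59. The share was 24.2% without control replicate 2 (59 of 244 regions), where a region needs a peak in only 1 control. In lists of equal length it was 75% (42 of 56 regions). Among 12207 control regions in windows of all protein-coding genes, 32.8% were met in both and 41.9% in neither. Height in the controls ordered the outcome: 2 of 30, 4 of 36, 9 of 25, 14 of 26 and 25 of 25 chaperone regions were met in both, from the lowest to the highest of 5 groups by height, against 2.30%, 10.2%, 22.3%, 46.5% and 81.9% of all regions. By position, both vitamin C libraries met 12 of 25 regions at gene starts, 23 of 76 in gene bodies and 14 of 31 at gene ends, against 41.3%, 26.7% and 46.0% of all.

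**Figure D4:**
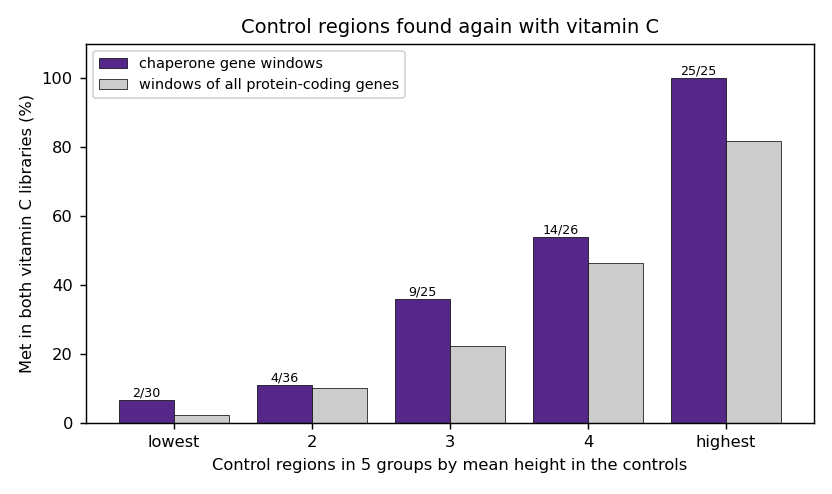
Share of control regions met by a peak in both vitamin C libraries (vertical axis, percent), in 5 groups by mean control height, for chaperone windows (left bar of each pair, with counts) and windows of all protein-coding genes (right bar). The chaperone share is 2 of 30 in the lowest group and 25 of 25 in the highest.

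The regions that were met were lower after vitamin C in height, by about the same amount as elsewhere. The median log2 ratio of height, vitamin C over control, was -0.48 over the 54 chaperone regions and -0.47 over 4005 regions of all genes, and 52 of the 54 were below 0, with a range of -0.87 to 0.24. In 46 of 54 (85.2%) both vitamin C libraries lay below both controls, against 76% of all regions; both lay above in 1 (1.85%), that of CCT7, against 0.674%. In both sets the regions were defined by peaks of both controls, which favours places that were high in the controls. No regions were defined from vitamin C peaks. The separation in height also rests on the division by the genome mean. In undivided fragments both vitamin C libraries lay below both controls in 8 of 54 (14.8%), against 18.3% of all regions, and above in 2 (3.70%), those of CCT7 and DNAJC14, against 3.3%. The median log2 ratio of fragments was -0.14 in both sets. Taken alone, vitamin C replicate 1 had a median of 0.06 in fragments and -0.49 in height over the chaperone regions, and vitamin C replicate 2, whose genome mean lay close to those of the controls, -0.34 in fragments and -0.40 in height. Family medians of the log2 ratio of height were -0.56 for DNAJB, -0.55 for HSPA, -0.52 for CCT, -0.47 for HSP90, -0.40 for HSPD1 and HSPE1, -0.30 for DNAJC and -0.16 for DNAJA. Counted per gene over the 58 chaperone genes with any peak, 30 (51.7%) had fewer peaks in both vitamin C libraries than in either control, against 47.8% of all such genes, and 2, HSP90AB1 and HSPA8, had more, against 0.474%. The covered length was lower in 45 (77.6%), against 67%, and higher in none, against 0.169%.

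**Figure D5:**
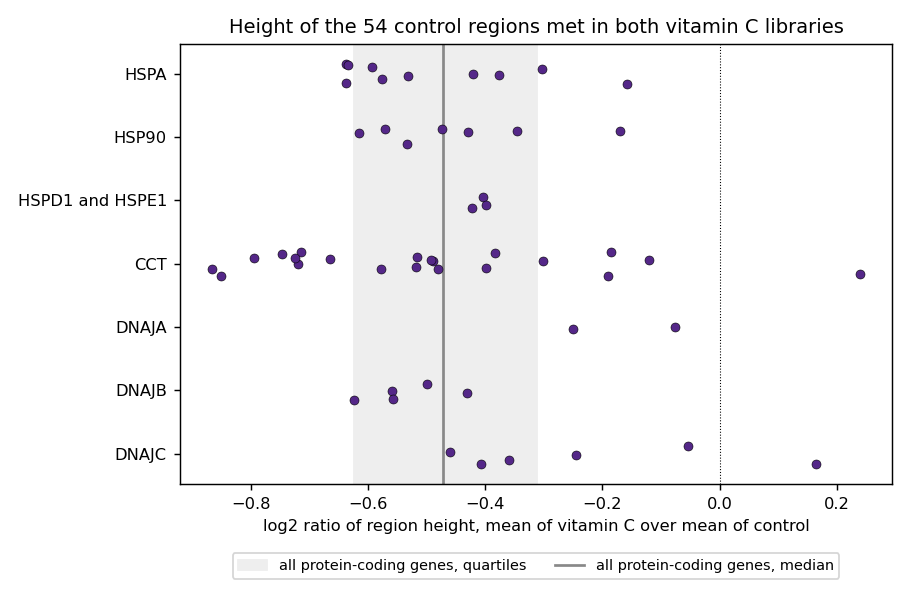
Log2 ratio of region height, mean of the vitamin C libraries over mean of the controls, for the 54 chaperone control regions met in both vitamin C libraries, by family; points are regions, and the grey band and line give the quartiles and median of 4005 regions of all protein-coding genes. All but 2 chaperone points lie below 0, and their median of -0.48 lies beside that of all genes at -0.47.

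The partners of these chaperones were described from 6 lists, with no test. Their fragment numbers are not divided by the genome mean, which was highest in vitamin C replicate 1 (1.22). For comparison, 35.3% of all protein-coding genes had a peak in both controls, and of those 49.7% were kept and 26.9% lost. Of 12 HSP90 co-chaperones 9 had a peak in both controls, and these 9 were kept and none lost, among them CDC37, the adaptor for kinases, with 23 and 21 fragments in its best peak with vitamin C and 30 and 22 in the controls, and UNC45A, the myosin chaperone. Of 11 matched HSP70 exchange and partner factors 8 had a peak in both controls, of which 4 were kept, BAG6 and STUB1 with the strongest control peaks, and 2 lost, BAG1 and SIL1. Of 6 prefoldin subunits, which deliver clients to CCT, only 2 had a peak in both controls, of which PFDN1 was lost and PFDN5 had a peak in 1 vitamin C library. Of 6 mitochondrial proteases and chaperones 4 had a peak in both controls, of which 3 were kept and none lost, and LONP1, the matrix protease, had 100 and 89 fragments in its best peak with vitamin C and 109 and 103 in the controls. Of 4 other heat shock factors and their binding protein none had a peak in both controls. Of 6 other heat-inducible genes 5 had a peak in both controls, of which UBB and MRPL18 were kept and PPP1R15A and SERPINH1 lost, and the kept MRPL18 peaks are in part those of TCP1.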

How the data were processed

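The submitters' processing notes name MACS2 2.2.7.1, Bowtie2 2.4.5, bcl2fastq 2.19, deepTools, cutadapt and Trim Galore, and the build hg38, without settings. Each labelled library has its own deposited peak list, with the authors' fold enrichment (a linear ratio) and −log10 p and −log10 q of each peak. These scores are the authors'. They served for ranks and thresholds inside each list, and fold and p also for solving the fragment numbers that were set against each other between libraries. The members and gene lists were chosen with earlier results of these data known.

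Peaks on chromosomes 1 to 22 and X were set against RefSeq GRCh38.p14 genes widened by 1 kb, with an overlap of at least 1 bp. Fragment numbers at summits and the genome mean were solved from the deposited fold and p, within 0.005 in −log10 p, for 100% of peaks; in vitamin C replicate 1 the labelled library was scaled by 0.776. This height measure was added after seeing the data. Group values were set against each other with an exact permutation test (two-sided), and shares carry 95% Clopper-Pearson intervals. Genes were named by a rule: all of the small families, in the other families up to 4 kept and 3 lost genes of the highest control strength, and up to 2 kept and 2 lost of each partner list; others named are in counts of 5 or fewer or were chosen after their values were seen. The replicate numbers were not taken as pairs of libraries (see the closing section). Alternatives were lists cut to equal length, a higher q or fold threshold, other windows and overlaps, omission of shared, small RNA or near-identical genes, omission of each library in turn, and a replicate block. Presence calls and solved fragments were tested on simulated data. Python 3.11.15, numpy 2.4.6, pandas 2.3.3, scipy 1.17.1 and matplotlib 3.10.9 were used.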

Additional observations from a re-analysis of the deposited data

How the results depend on the processing

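The differences in number between the groups did not hold in lists of equal length. With the 4 lists cut to equal length by rank, the vitamin C libraries had 0.5 more chaperone genes with a peak on average than the controls, and the log2 ratio of peaks was 0.0875, both opposite in sign to the values from the full lists; 1 gene, HSPB9, was lost, 1, HSPA12B, was gained, and 75% of control regions were met. With gene ends only, 50.8% of regions were met. Leaving out each library gave between -19.5 and -13.5 genes, log2 ratios of peaks between -1.38 and -1.08, shares higher by 0.0962 to 0.180 percentage points, 31 to 36 kept genes, 10 to 16 lost genes, 0 to 1 gained gene (HSPA12B, without control replicate 1) and 24.2% to 49.3% of regions met. The 16 lost genes came without control replicate 2 and 14 without vitamin C replicate 2. Leaving out a library relaxes each rule, so kept and lost counts could not fall. Without control replicate 2 a region needs only 1 control, and 59 of 244 regions were met. The other alternatives on these values kept the direction and stayed within 1.5 times of each count, although at −log10 q of at least 5 only 3 of the 7 lost genes were among the 9. A common −log10 p of at least 8, chosen after seeing the data, gave 24 kept and 6 lost genes. Genes kept in the full lists but lost under an alternative were HSP90B1 at both stricter thresholds, CCT7, DNAJB1 and DNAJC14 with gene ends only, DNAJB14 and DNAJC30 without the 1 kb on either side, and DNAJB1 and DNAJC30 without peaks on other coding genes. Without division by the genome mean, a comparison chosen after seeing the data, 8 in place of 46 of the 54 regions met were lower in both vitamin C libraries than in either control.

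With the replicate number as a block, the difference was -16.5 genes, the log2 ratio of peaks -1.23 and the share 0.138 percentage points higher. No permutation within blocks was run, so no p-value is given for the block. Deviations of same-numbered libraries in peak number per gene correlated at -0.010 over 9484 genes, and the numbers were not taken as pairs. Counting noise in peak numbers can hide a pairing, so this value does not exclude one.

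The peak lists hold no reads below the calling threshold, and the weakest called peaks held 10 and 7 fragments with vitamin C and 6 in each control. A lost call is not a measured absence of opened DNA.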
